A study of Mus musculus with 9 samples.

Results

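NOX4 (NADPH oxidase 4) and antioxidant defence were followed here through 10 genes of sorted lung fibroblasts from aged mice, picked by name from the 43346 genes of the deposited table. The 10 are Nox4, the NRF2 targets Nqo1, Hmox1, Gclc, Gclm, Txnrd1, and Srxn1, and the superoxide and peroxide scavengers Sod3, Cat, and Gpx3. All 10 were in the table and all 10 passed the filter on low counts. Aged (18 months; 72 weeks in the sample labels) male Col1a1-GFP mice on an FVB background, whose GFP is driven by the collagen I promoter, received 1 intratracheal dose of saline (aged sham, n = 4) or bleomycin (aged bleo, n = 5). On day 30, GFP+ cells without CD45 (leukocytes), CD31 (endothelium), or EpCAM (epithelium) were sorted from the digested lungs, and their polyadenylated RNA was sequenced. Every mouse in both groups carried the reporter, so the sort aimed at cells marked by the collagen promoter, and cells without GFP were outside its gate. Transcripts of other cell types were still measured, as given below. In such bulk samples, fewer cells of a type and less RNA per cell cannot be told apart.

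NOX4 is a membrane enzyme that passes electrons from NADPH to oxygen and releases hydrogen peroxide, and in fibroblasts it is known as a gene induced by TGF-β. NRF2, encoded by Nfe2l2, is a transcription factor that KEAP1 holds at a low level until oxidants or electrophiles modify KEAP1. It then pairs with small MAF proteins at antioxidant response elements and turns on genes for glutathione synthesis, thioredoxin recycling, quinone reduction, and heme breakdown. Extracellular superoxide dismutase and plasma-type glutathione peroxidase act outside the cell, and catalase in peroxisomes.

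Library totals ran from 49921946 to 62370512 counts in aged sham and from 53833507 to 68260600 counts in aged bleo. The fibroblast markers Col1a1, Col1a2, Col3a1, and Dcn were each at 1420 CPM or more (TMM-normalized CPM, counts scaled to the library total) in every library, and of 8 fibroblast genes 4 were called higher and 2 lower after injury. Markers of the cell types removed by the sort were still measured, at levels that differed between libraries. The summed CPM of 5 pan-leukocyte genes ranged from 127 to 439 in aged sham and from 128 to 678 in aged bleo, and was highest in aged sham 4 and aged bleo 4, with 1 of the 5 called higher. The summed CPM of 10 macrophage genes was 159 to 281 in aged sham and 467 to 1527 in aged bleo, with 4 of the 10 called higher. Aged bleo 4 and aged bleo 5 stood apart from the other injured libraries by lower Pdgfra (440 and 550 CPM against 726 to 864) and Tcf21 (29.4 and 29.3 CPM against 57.2 to 67.1), genes of the resident fibroblast state. Of the same list, Dcn, Lum, and Mfap4 were also lowest there, whereas Col1a1 was highest there (24529.5 and 25929 CPM against 13547 to 21624). Genes were called at an FDR (edgeR's quasi-likelihood test, Benjamini-Hochberg adjustment over 16877 genes) under 0.10 together with a fold change over 1.5, and "rose" and "fell" are used for called genes alone.

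Of the 10 genes, 1 rose (Hmox1) and 1 fell (Gclc), where 12.3% of all genes tested were called higher and 11.5% lower. Another 3 (Nox4, Srxn1, and Cat) had an FDR under 0.10 with a fold change under 1.5, so that 5 of 10 passed the FDR alone, against 44.8% of all genes. The log2 fold changes of the 10 ran from -0.80 to 0.63 with a median of -0.26, beside a median of 0.01 over all genes tested. In 4 of the 10, every aged bleo library was below every aged sham library, and in 1 every aged bleo library was above, where 16.1% of all genes did each. Together, 5 of the 10 did not overlap between the groups, beside 32.2% of all genes. The called shares were close to those of all genes, and a single gene makes up a large share of so small a set.

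**Figure D1:**
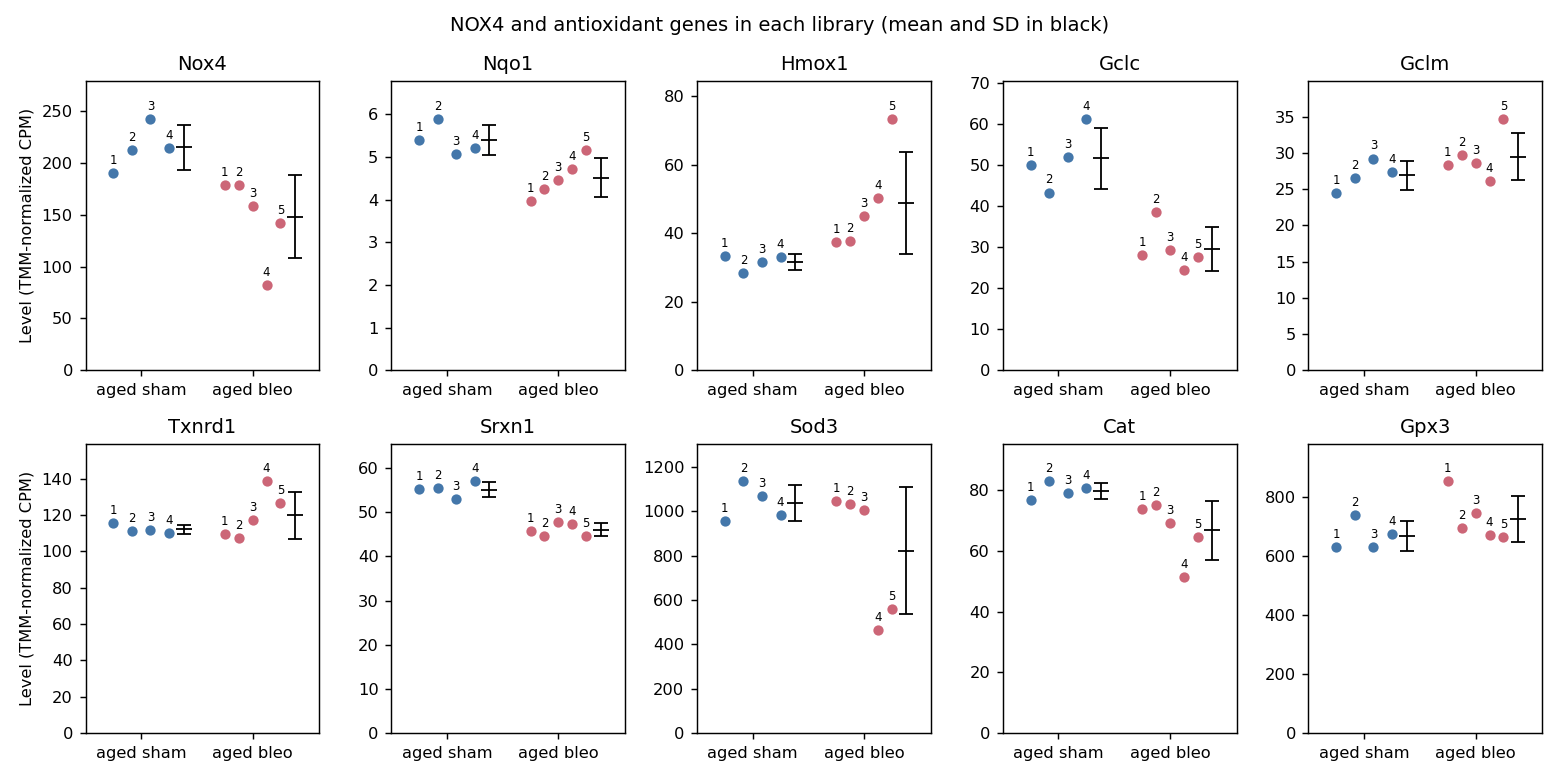
Level (TMM-normalized CPM, linear axis from 0) of each gene in each library, with points numbered by replicate, aged sham in blue (n = 4) and aged bleo in red (n = 5); black marks are the mean and SD. Gclc, Nox4, Srxn1, and Cat are lower in all aged bleo libraries and Hmox1 is higher in all of them, while in Sod3 aged bleo 4 and aged bleo 5 lie far below the other 7 libraries.

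Nox4 (ENSMUSG00000030562, GRCm38 chromosome 7, 87246096 to 87398710) did not rise in the fibroblasts of injured aged lungs. It was at 190.0, 213, 243, and 215 CPM in aged sham 1 to 4. In aged bleo 1 to 5 it was at 179, 179, 158, 82.3, and 142 CPM. Every injured library was thus below every uninjured one, and aged bleo 4 was lowest by a wide margin. The means were 215 ± 21.5 CPM (SD, n = 4) and 148 ± 39.9 CPM (SD, n = 5), for a log2 fold change of -0.54 (standard error 0.21, FDR 0.0679), short of the 1.5-fold threshold. Without aged bleo 4 the log2 fold change was -0.39 (standard error 0.10, FDR 0.0209). Without aged sham 1, aged bleo 1, or aged bleo 2 it was -0.59, -0.61, and -0.61, and Nox4 was called lower. The FDR of Nox4 did not stay under 0.10 in other fits. It was 0.119, 0.149, and 0.120 without aged sham 2, 3, or 4, and 0.124 without aged bleo 5. With the replicate number as a block it was 0.116. Smooth muscle and pericyte markers went in both directions. The summed CPM of 6 such genes, of which 2 were called lower and 1 higher, was 1342 to 2685 in aged sham and 808 to 1746 in aged bleo. Myh11, Cnn1, and Rgs5 had lower means in aged bleo, and Myh11 was the largest part of the sum in aged sham (mean 1375 CPM). Des, Cspg4, and Notch3 had higher means in aged bleo (307, 140, and 145 CPM) than in aged sham (233, 101, and 62.7 CPM). The lowest sum was in aged bleo 4, as for Nox4. Aged sham 4 had the lowest sum of aged sham, with Nox4 at 215 CPM. The part of these markers in the Nox4 values was not tested.

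The genes whose level followed Nox4 most closely over the 9 libraries were Phyhipl, Pkia, which encodes an inhibitor of protein kinase A, and Taf9b, a subunit of the basal transcription machinery. Likeness was measured as the root mean square difference of log2 CPM after each gene was centred on its own mean, among 10010 other genes with a mean of at least 10 CPM. It was 0.096 for Phyhipl, 0.106 for Pkia, and 0.107 for Taf9b, where the median gene was at 0.469.

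Among the NRF2 targets, Hmox1 and Gclc were called in opposite directions. Hmox1 (ENSMUSG00000005413, chromosome 8, 75093591 to 75100596) encodes heme oxygenase 1, which splits heme into biliverdin, iron, and carbon monoxide. It was at 33.4, 28.4, 31.6, and 33.1 CPM in aged sham 1 to 4 and at 37.4, 37.8, 44.9, 50.3, and 73.4 CPM in aged bleo 1 to 5. All injured libraries were above all uninjured ones, but aged bleo 1 and 2 only by a small step, and aged bleo 5 stood highest. Hmox1 rose from 31.6 ± 2.29 CPM (SD, n = 4) to 48.8 ± 14.8 CPM (SD, n = 5), with a log2 fold change of 0.63 (standard error 0.19, FDR 0.0321). Without aged bleo 5 the log2 fold change was 0.43 (FDR 0.0240), and without aged sham 2 it was 0.58 (FDR 0.0857), both under the fold threshold. Macrophages are a known source of Hmox1. The summed macrophage markers were 467, 694, 552, 1527, and 881 CPM in aged bleo 1 to 5, all above the aged sham range, and none of the 10 markers was at 0 in any library. Lyz2 made up most of this sum in aged bleo, and without Lyz2 it was 79.3 to 119.6 CPM in aged sham and 94.6, 138, 132, 397, and 224 CPM in aged bleo 1 to 5, with aged bleo 1 inside the aged sham range. Aged bleo 4 and 5 were the highest libraries both in the macrophage sum and in Hmox1. The sum was higher in aged bleo 4, and Hmox1 was higher in aged bleo 5. The part of these markers in the rise of Hmox1 was not tested. The genes nearest to Hmox1 in pattern were Mtpn, Lap3, and Mapk6, with root mean square differences of 0.116, 0.117, and 0.128 on the log2 scale, where the median gene was at 0.442.

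Gclc (ENSMUSG00000032350, chromosome 9, 77754535 to 77794485) encodes the catalytic subunit of glutamate-cysteine ligase, the rate-limiting enzyme of glutathione synthesis, and Gclm its modifier subunit. Gclc was at 50.1, 43.4, 52.1, and 61.4 CPM in aged sham 1 to 4. It was at 28.2, 38.7, 29.4, 24.4, and 27.6 CPM in aged bleo 1 to 5. The groups did not overlap, and aged bleo 2 was nearest to the uninjured libraries. Gclc fell from 51.8 ± 7.43 CPM (SD, n = 4) to 29.7 ± 5.36 CPM (SD, n = 5), with a log2 fold change of -0.80 (standard error 0.14, FDR 0.00331). Leaving out any single library kept it called lower, with log2 fold changes from -0.92 to -0.71.

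Gclm (ENSMUSG00000028124, chromosome 3, 122245557 to 122269984) did not follow its partner. It was at 24.4, 26.6, 29.2, and 27.4 CPM in aged sham 1 to 4 and at 28.3, 29.7, 28.7, 26.1, and 34.7 CPM in aged bleo 1 to 5, with overlapping groups (log2 fold change 0.13, standard error 0.09, FDR 0.284). Within a library, the ratio of both subunits does not depend on how libraries are scaled. Counted per gene length, there were 3.32, 2.64, 2.89, and 3.63 Gclc reads for each Gclm read in aged sham 1 to 4 and 1.62, 2.11, 1.66, 1.51, and 1.29 in aged bleo 1 to 5. The mean ratio was 3.12 ± 0.442 (SD, n = 4) in aged sham and 1.64 ± 0.301 (SD, n = 5) in aged bleo, without overlap. The log2 ratio differed by -0.94. This ratio was chosen after the values of both genes had been seen, so it describes them and was not tested.

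**Figure D2:**
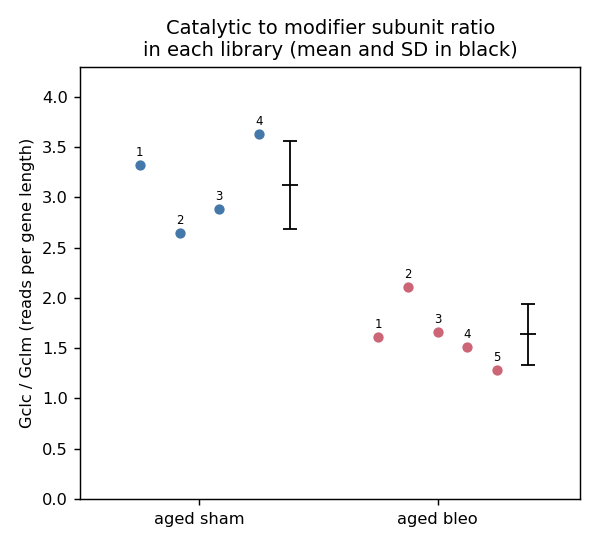
Ratio of Gclc to Gclm reads per gene length (linear axis from 0) in each aged sham (blue, n = 4) and aged bleo (red, n = 5) library, numbered by replicate; black marks are the mean and SD. The aged sham libraries lie between 2.64 and 3.63 and the aged bleo libraries between 1.29 and 2.11.

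Srxn1 (ENSMUSG00000032802, chromosome 2, 152105516 to 152111376) encodes sulfiredoxin, which restores overoxidized peroxiredoxins. It was the least variable of the 10 in aged bleo, with a coefficient of variation of 2.99% in aged sham and 3.27% in aged bleo. Its levels were 55.2, 55.5, 53.0, and 57.0 CPM in aged sham 1 to 4 and 45.7, 44.6, 47.9, 47.4, and 44.7 CPM in aged bleo 1 to 5. The difference was small and without overlap, at -0.26 on the log2 scale (standard error 0.05, FDR 0.00595), which is under the fold threshold.

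Nqo1 (ENSMUSG00000003849, chromosome 8, 107388225 to 107403206), a quinone reductase often read as a marker of NRF2 activity, was scarce in these cells. It was at 5.39, 5.90, 5.08, and 5.22 CPM in aged sham 1 to 4 and at 3.96, 4.26, 4.46, 4.72, and 5.16 CPM in aged bleo 1 to 5. Only aged bleo 5 reached the aged sham range. Its log2 fold change of -0.26 (standard error 0.11, FDR 0.107) did not pass. Txnrd1 (ENSMUSG00000020250, chromosome 10, 82859206 to 82897724), the cytosolic thioredoxin reductase, was steady in aged sham at 116, 111, 112, and 110.1 CPM. In aged bleo 1 to 5 it was at 109.6, 107, 117, 139, and 126 CPM, so that aged bleo 4 and 5 were high and the others lay in or near the aged sham range (log2 fold change 0.09, standard error 0.08, FDR 0.417). Without aged bleo 4 and 5, the log2 fold change of Txnrd1 was -0.018.

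Of the 6 NRF2 targets, 1 thus rose, 1 fell, and 4 were not called. The core of the antioxidant response element, TGACNNNGC on either strand, was looked up in the RefSeq promoters (GRCm38.p6, 250 bases before to 50 after a start site), which cover 7 of the 10 genes. It occurred in 3 of these 7, Gclm, Txnrd1 (at 1 of its 3 listed start sites), and Srxn1, beside 14% of all 27025 genes in the table. Counted by window, it was in 3 of 9 windows of these genes and in 12.4% of all 32851 windows. The matches are printed because they are the sites of this pattern nearest to the start of genes in the set, 5′ to 3′ on the strand of the match, with the core in capitals. All 3 lie on the strand opposite to the gene, in the windows chr3:122245415-122245439, chr10:82859106-82859130, and chr2:152105544-152105568.
Gclm: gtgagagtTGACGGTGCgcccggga
Txnrd1: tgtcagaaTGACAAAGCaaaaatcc
Srxn1: tctcactcTGACCTAGCtgcccact
None of these 3 genes was called, and their log2 fold changes were 0.13, 0.09, and -0.26. Hmox1 and Gclc, the only members called, and Sod3 were not among the genes covered. The matches can therefore not be set against the calls. Nox4, Nqo1, Cat, and Gpx3 had no match in this window, and a match by letters is not a measured binding site.

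**Figure D3:**
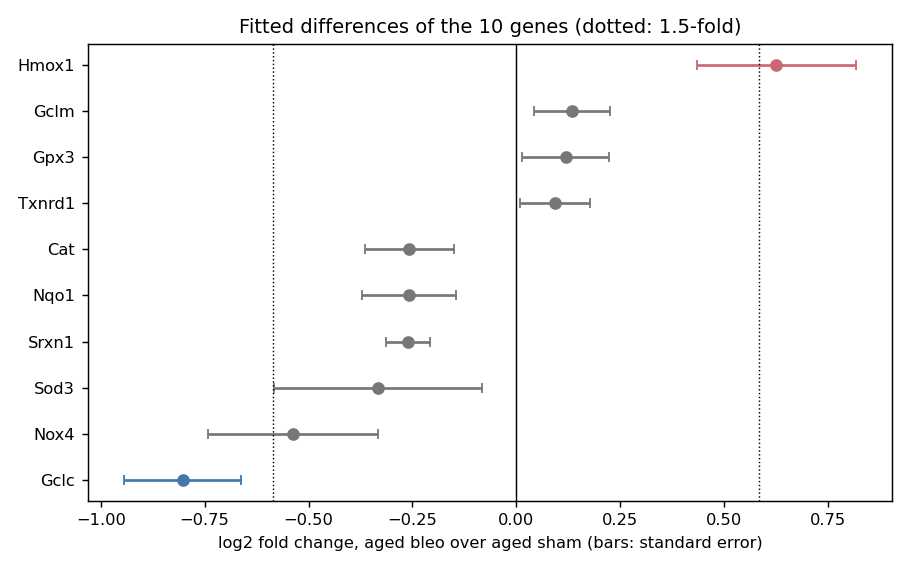
Fitted log2 fold change of aged bleo over aged sham for each of the 10 genes, with bars for the standard error; dotted lines mark a fold change of 1.5, and red, blue, and grey mark genes called higher, lower, and not called. Gclc (-0.80) and Hmox1 (0.63) lie beyond the dotted lines, and Nox4 (-0.54) lies just inside.

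The secreted scavengers Gpx3 and Sod3 were the most abundant of the 10 per gene length. The deposited FPKM are fragments per kilobase of gene, scaled to a total per library that is larger than the summed counts. In aged sham the FPKM was 155 ± 12.7 for Gpx3 and 122 ± 11.2 for Sod3 (SD, n = 4), with no overlap between these genes. They were followed by Txnrd1 at 13.8, Cat at 12.8, Nox4 at 10.7, Srxn1 at 8.21, Gclc at 6.34, Hmox1 at 6.14, Gclm at 2.04, and Nqo1 at 1.46 FPKM. In this order Txnrd1 and Cat overlapped in their libraries, as did Gclc and Hmox1, and the other neighbours did not. In aged bleo, the mean of Hmox1 (9.74 FPKM) was above those of Nox4 (7.49 FPKM) and Srxn1 (7.03 FPKM), with overlapping libraries. Nox4 was above Hmox1 in aged bleo 1 and 2 (9.15 and 8.86 against 7.49 and 7.35 FPKM).

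Sod3 (ENSMUSG00000072941, chromosome 5, 52363946 to 52371405) encodes the secreted superoxide dismutase that binds to heparan sulfate in the matrix of the lung. It was at 958, 1135, 1069.8, and 983 CPM in aged sham 1 to 4. It was at 1049, 1034, 1006, 466, and 561 CPM in aged bleo 1 to 5. The first 3 injured libraries were within the aged sham range, and aged bleo 4 and 5 were far below it. As a result, the coefficient of variation was 7.86% in aged sham and 34.6% in aged bleo, the highest of the 10 genes, and the log2 fold change of -0.33 (standard error 0.25, FDR 0.330) did not pass. Without aged bleo 4 and 5, it was -0.015. These libraries were left out because they were lowest in Sod3. The value therefore restates that the other injured libraries were in the aged sham range, and it is no test of Sod3. The same libraries were lowest in Cat and Nox4 and highest in Hmox1 and Txnrd1. They also had the highest summed macrophage markers of aged bleo (1527 and 881 CPM against 467 to 694) and the lowest summed smooth muscle and pericyte markers (808 and 1284 CPM against 1412 to 1746). The pan-leukocyte genes summed to 678 CPM in aged bleo 4 and to 188 CPM in aged bleo 5, where aged bleo 1 to 3 had 128 to 195 CPM. The part of these markers in the Sod3 values was not tested. The genes nearest to Sod3 in pattern were Tmem204, Pam, which encodes a secretory enzyme that amidates peptides, and Lrp3, with root mean square differences of 0.065, 0.089, and 0.111, where the median gene was at 0.465.

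Cat (ENSMUSG00000027187, chromosome 2, 103453849 to 103485160), which encodes catalase, was at 76.6, 82.9, 79.2, and 80.6 CPM in aged sham 1 to 4 and at 73.8, 75.2, 69.2, 51.3, and 64.5 CPM in aged bleo 1 to 5. The groups did not overlap, with a small gap and the lowest value in aged bleo 4. The log2 fold change of Cat was -0.26 (standard error 0.11, FDR 0.0885), under the fold threshold, and -0.18 without aged bleo 4. The FDR of Cat did not stay under 0.10 in other fits. It was 0.121, 0.177, 0.136, and 0.156 without aged sham 1, 2, 3, or 4. Without aged bleo 3 or 5 it was 0.120 and 0.156, and with the replicate number as a block 0.165. Gpx3 (ENSMUSG00000018339, chromosome 11, 54902453 to 54910377), the secreted selenium-dependent peroxidase, was at 630.2, 738, 629.7, and 675 CPM in aged sham 1 to 4 and at 853, 694, 744, 672, and 664 CPM in aged bleo 1 to 5. Its groups overlapped and aged bleo 1 was highest (log2 fold change 0.12, standard error 0.10, FDR 0.405).

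The other genes of oxidant production and defence were described from 6 lists of 87 genes, of which 80 passed the filter on low counts. Of the 80, 21 fell (26.3%) and 4 rose (5.00%), beside 11.5% and 12.3% of all genes tested. Their median log2 fold change was -0.08, beside 0.01 for all genes. The number that fell stayed between 20 and 24 when any single library was left out, and the number that rose was 3 to 9, with 9 without aged bleo 2.

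Of the NADPH oxidase genes other than Nox4, 4 of 13 tested fell and 1 rose. Those that fell encode the dual oxidases DUOX1 and DUOX2, the DUOX1 maturation factor DUOXA1, and the NOX1 organizer NOXO1. Duox1 was at 29.1, 30.9, 33.2, and 28.3 CPM in aged sham 1 to 4 and at 8.44, 10.8, 7.24, 1.80, and 3.29 CPM in aged bleo 1 to 5. Duoxa1, its neighbour in the genome, had means of 20.7 ± 2.05 and 4.84 ± 2.23 CPM in these groups (here and in the next pairs, SD, n = 4 and n = 5). The log2 fold changes of Duox1 and Duoxa1 were -2.27 and -2.10 (standard errors 0.44 and 0.32, FDR 0.00502 and 0.00180), beside -0.54 for Nox4. Noxo1 was at 17.7 ± 3.34 and 5.50 ± 2.33 CPM (log2 fold change -1.69, standard error 0.29, FDR 0.00281). It overlaps Tbl3, which has more reads and lies on the opposite strand. Duox2 was scarce, at 3.22 ± 0.760 and 1.08 ± 0.602 CPM (log2 fold change -1.57). In all of these genes aged bleo 4 and 5 were lowest.

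Cybb, which encodes NOX2, the phagocyte oxidase, was the one gene of this list that rose. It was at 10.9, 10.3, 9.65, and 16.3 CPM in aged sham 1 to 4 and at 27.3, 44.2, 40.6, 97.5, and 51.1 CPM in aged bleo 1 to 5 (log2 fold change 2.15, standard error 0.36, FDR 0.00253). Its highest library was aged bleo 4, as for the summed macrophage markers, and their part in the rise was not tested. Its partner Cyba, which also stabilizes NOX4, averaged 53.2 ± 3.26 CPM without and 54.0 ± 13.5 CPM with injury, with 77.9 CPM in aged bleo 4. The log2 fold change of Cyba was 0.02 (FDR 0.929) and -0.16 without aged bleo 4, and Cyba overlaps another annotated gene with more reads.

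**Figure D4:**
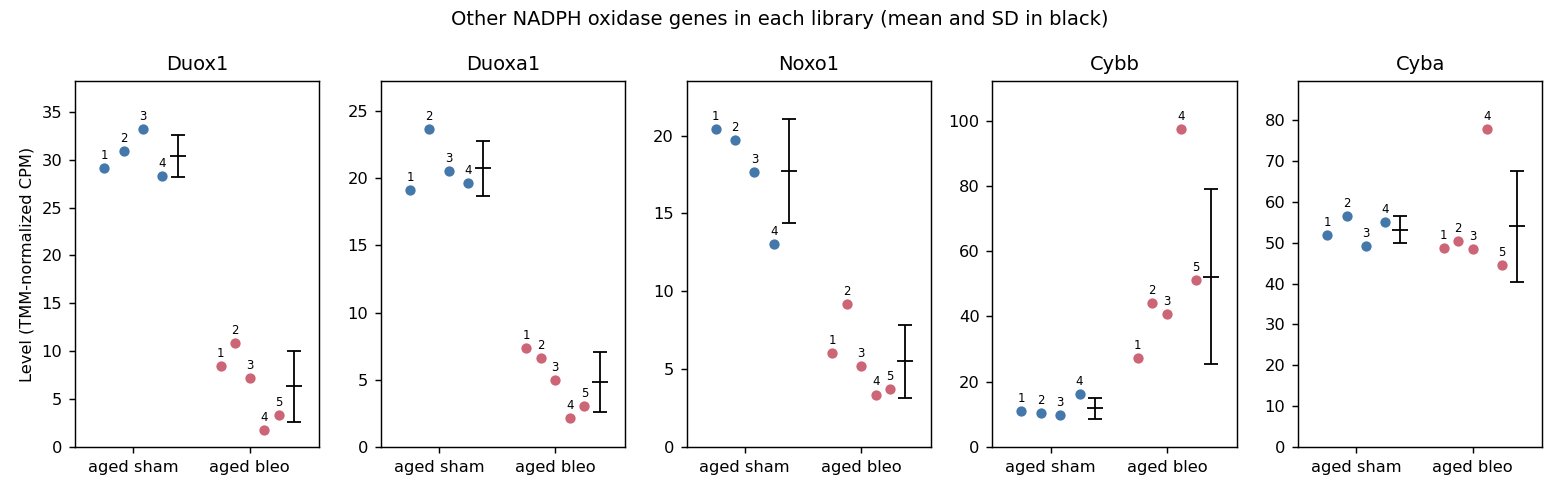
Level (TMM-normalized CPM, linear axis from 0) of 5 further NADPH oxidase genes in each aged sham (blue, n = 4) and aged bleo (red, n = 5) library, numbered by replicate; black marks are the mean and SD. Duox1, Duoxa1, and Noxo1 are lower and Cybb is higher in all aged bleo libraries, and Cyba overlaps between the groups.

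The transcript of NRF2 itself was lower after bleomycin, by less than the fold threshold. Nfe2l2 was at 192, 164, 169.8, and 189 CPM in aged sham 1 to 4 and at 123, 136, 143, 139, and 114 CPM in aged bleo 1 to 5. The groups did not overlap, and the log2 fold change was -0.45 (standard error 0.09, FDR 0.00570). Of its partners among the small MAF genes, Maff and Mafk fell and Mafg was not called. Maff was at 193 ± 38.5 and 76.5 ± 27.7 CPM (log2 fold change -1.33, FDR 0.00574) and Mafk at 131 ± 17.6 and 65.5 ± 19.1 CPM (log2 fold change -1.004, FDR 0.00698). Mafg, named after its values were seen, was at 92.8 ± 4.53 and 88.0 ± 6.11 CPM (log2 fold change -0.08, standard error 0.07, FDR 0.424), with overlapping groups. Keap1, which encodes the inhibitor of NRF2, was at 39.2 ± 2.55 and 40.2 ± 2.67 CPM (log2 fold change 0.04, standard error 0.07, FDR 0.721). Bach1, which encodes a repressor of Hmox1, was at 100.4 ± 44.7 and 94.7 ± 20.1 CPM (log2 fold change -0.08, standard error 0.26, FDR 0.830). The Bach1 level was 166 CPM in aged sham 1 and 70.4 to 91.6 CPM in the other uninjured libraries, and without aged sham 1 the log2 fold change was 0.27.

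Of the glutathione genes, 5 of 13 tested fell and 1 rose. Gstm1, a glutathione transferase, was the most abundant of these and was at 555, 696, 653, and 689 CPM in aged sham 1 to 4 and at 174, 271, 183, 73.1, and 76.2 CPM in aged bleo 1 to 5 (log2 fold change -2.06, standard error 0.37, FDR 0.00363). The related transferase genes Gsta3, Gsta4, and Gstm2 fell too (log2 fold changes -1.65, -1.18, and -0.78), although reads may be shared among transferase genes of high sequence similarity. Ggt5, a γ-glutamyltransferase, fell (log2 fold change -0.83). Ggt1, which starts the recovery of extracellular glutathione, rose from 0.279 ± 0.126 to 0.763 ± 0.113 CPM (log2 fold change 1.44, FDR 0.00563), a low level on either side. Its mean count was 15.8 in aged sham and 45.2 in aged bleo, so that it passed the filter of 25 only through the group where it was high, and without it 3 list genes rose.

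Of 16 genes for NADPH supply, heme, iron, and detoxification, 5 fell and the other 11 were not called. Ugdh, which makes the UDP-glucuronate used in glucuronidation and in hyaluronan and proteoglycan synthesis, dropped from 723 ± 70.0 to 209 ± 55.3 CPM (log2 fold change -1.79, standard error 0.18, FDR 1.92e-04). Aox1, an aldehyde oxidase, Osgin1, an oxidative stress-induced growth inhibitor, and Ephx1, an epoxide hydrolase, fell (log2 fold changes -1.15, -0.95, and -0.67). Ephx1 lost its call without aged bleo 4 or aged bleo 5, with log2 fold changes of -0.55 and -0.58. Blvrb, a biliverdin reductase downstream of heme oxygenase, was at 25.9 ± 1.61 and 15.2 ± 2.23 CPM (log2 fold change -0.77, standard error 0.11, FDR 0.00139), opposite in direction to Hmox1.

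Of 13 intracellular dismutase, peroxidase, and peroxiredoxin genes tested, 1 rose and the other 12 were not called. The one that rose was Prdx5, a peroxiredoxin of mitochondria and peroxisomes, from 52.5 ± 4.56 to 88.6 ± 29.6 CPM (log2 fold change 0.75, FDR 0.0257). Prdx5 was at 136 CPM in aged bleo 4, and aged bleo 2, at 56.8 CPM, lay within the aged sham range. Prdx5 lost its call when aged bleo 4 was left out (log2 fold change 0.54, FDR 0.0208). The median log2 fold change of this list was 0.21, the only positive one among the 6 lists.

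In the list of thioredoxin, methionine repair, selenium transport, and metallothionein genes, 5 of 16 fell and 1 rose. The metallothioneins Mt1 and Mt2, zinc-binding proteins that also quench oxidants, fell from 358 ± 56.3 to 130.1 ± 36.5 CPM and from 326 ± 57.8 to 128 ± 51.5 CPM. Their log2 fold changes were -1.46 and -1.34 (FDR 0.00115 and 0.00593). Sepp1 (selenoprotein P, a carrier of selenium) was at 975, 1164, 1050.2, and 1169 CPM in aged sham 1 to 4 and at 524, 677, 406, 303, and 302 CPM in aged bleo 1 to 5 (log2 fold change -1.30, standard error 0.24, FDR 0.00408). Txnip, an inhibitor of thioredoxin, and Txnrd3, a further thioredoxin reductase, fell (log2 fold changes -0.94 and -0.75). Sesn3, a sestrin, rose from 14.8 ± 4.74 to 25.4 ± 3.28 CPM (log2 fold change 0.77, FDR 0.0141), with aged sham 1 at 21.9 CPM inside the aged bleo range.

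**Figure D5:**
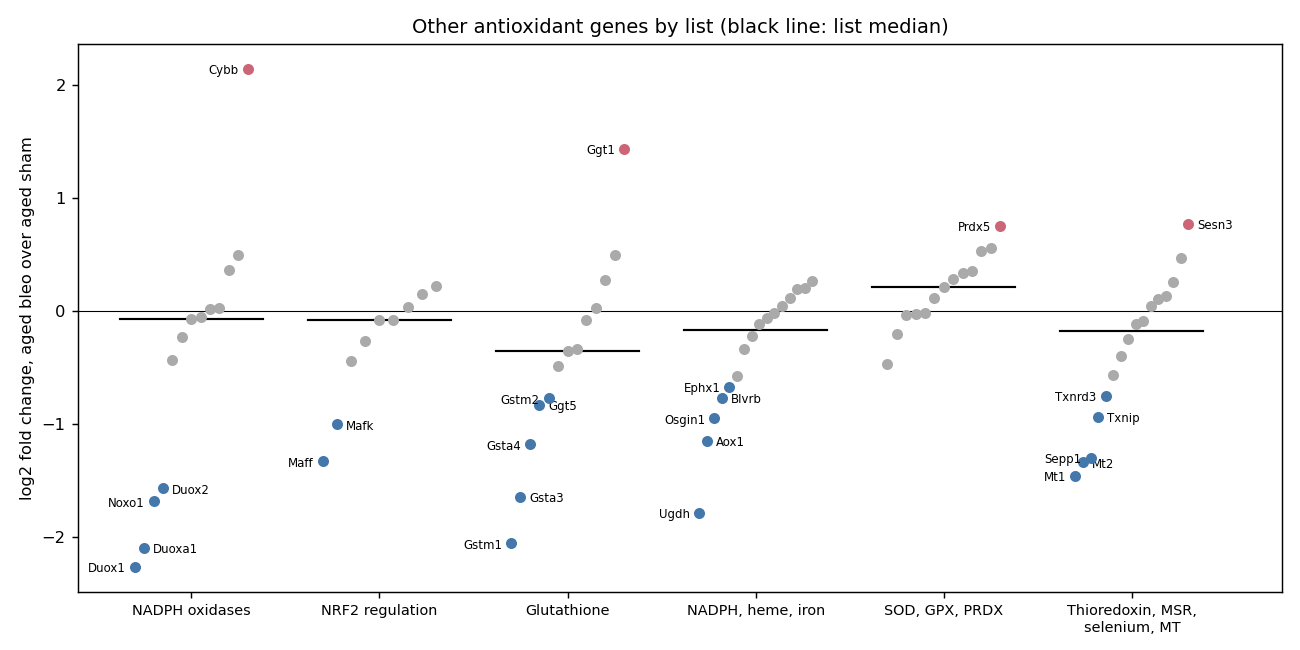
Log2 fold change of aged bleo over aged sham for the 80 tested genes of 6 lists of oxidant production and defence, one point per gene; red and blue points, labelled, were called higher and lower, grey points were not called, and black lines are list medians. The called genes are mostly lower, apart from Cybb (2.15), Ggt1 (1.44), Sesn3 (0.77), and Prdx5 (0.75).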

How the data were processed

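The 9 RNA-Seq libraries came from sorted lung fibroblasts, 4 of aged sham and 5 of aged bleo. The labels' group and replicate number were used as given, and p-values set the group difference against the spread between these samples. Per the submitters' processing notes, the reads were handled with bcl2fastq, STAR 2.5.2b, and featureCounts on mm10 (GRCm38); the strand setting is not given in the sources used here. The authors deposited whole-number counts per gene without normalization, and FPKM values, which they divided by gene length and by a total 2.27 to 2.42 times the summed counts. Coordinates are those of the table, and 78.8% of 42462 shared identifiers have the same positions in GENCODE M21 (6 of the 10 genes).

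The test covered genes whose mean count over the libraries reached 25. Counts were TMM-normalized, and edgeR 4.0.16 fitted the quasi-likelihood model (glmQLFit, glmQLFTest) without covariates in R 4.3.3. A call needed a Benjamini-Hochberg FDR below 0.10 together with a change of more than 1.5-fold. A standard error is the log2 fold change divided by the root of its F statistic. Log2 CPM used a prior count of 2. Intervals and errors do not cover reads lost to overlapping genes, which matter for Noxo1, Cyba, Prdx5, Txnip, Keap1, and Gclm.

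The members and lists were chosen with earlier results of these data known. Named are the 10 genes, the called genes of each list with a mean of at least 1 CPM (at most 4 in each direction), Nfe2l2, Keap1, Bach1, Cybb, and Cyba, and the 3 genes nearest in pattern to Nox4, Hmox1, and Sod3; Ggt1, Gstm2, Ephx1, and Txnrd3 were named after their values were seen, since they complete the counts. Marker lists covered fibroblast, activated fibroblast, pan-leukocyte, macrophage, neutrophil, endothelial, epithelial, erythroid, smooth muscle and pericyte, and mesothelial genes. Alternatives were DESeq2 1.42.0, limma 3.58.1 (limma-trend) on log2 CPM, log2(FPKM + 0.1), and log2(FPKM + 1), RLE or unadjusted library sizes, a filter of 10 counts per library or none, robust fitting, an FDR under 0.05 with a fold over 2, leaving out libraries, and a replicate block.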

Additional observations from a re-analysis of the deposited data

How the results depend on the processing

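Gclc kept its direction under all 22 alternatives and its call under all except the thresholds of FDR 0.05 and 2-fold, where none of the 10 genes was called (0 higher, 0 lower), 2 list genes rose, and 2158 genes were called in all. Hmox1 kept its direction in all 22 alternatives but lost its call in 7. No member was called higher (0) with limma-trend on log2 CPM (where 2 were called lower, as Nox4 reached -0.59), with limma-trend on log2(FPKM + 1) (1785 genes called in all), or without aged bleo 4 and 5, a choice made after seeing the data (Hmox1 0.34). With each library left out in turn, 0 to 1 members were called higher, 1 to 2 lower, 3 to 9 list genes higher, and 3525 to 4597 genes in all; the log2 ratio of Gclc to Gclm differed by -1.03 to -0.86. Without aged sham 4 and aged bleo 4, the libraries with the most leukocyte transcripts, the members called were the same, with Hmox1 at 0.62 and Gclc at -0.67.

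The labels give replicate numbers but do not say whether these pair the animals. The deviations of same-numbered libraries correlated at 0.09, 0.06, -0.13, and 0.33, and 2 of 8 libraries correlated best with their own number. Such correlations cannot show whether animals were paired, since a pairing with small shared effects would leave them low. With the number as a replicate block, 3536 genes were called, 0 members were called higher (Hmox1 0.42), and Gclc stayed lower.

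Signs that turned were those of genes near no change. Txnrd1 was at -0.018 without aged bleo 4 and 5. Cyba was at -0.0077 with limma-trend on log2 CPM, -0.15 without aged sham 4 and aged bleo 4, -0.12 without aged bleo 4 and 5, and -0.16 to 0.086 with single libraries left out. Bach1 was at 0.021 and 0.012 on log2(FPKM + 0.1) and log2(FPKM + 1), 0.030 with the replicate block, 0.034 without aged bleo 4 and 5, and -0.22 to 0.27 with single libraries left out. The cause of these changes was not tested. At these depths, 3 counts correspond to 0.041 to 0.060 CPM, and the scarcest gene named, Ggt1, was at 0.181 to 0.941 CPM.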

Other observations

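Ncf1 and Ncf4, which encode cytosolic subunits of the phagocyte oxidase, and Rac2, a hematopoietic GTPase, were not called, while the catalytic subunit Cybb rose. Ncf1 was at 12.6, 16.5, 19.4, and 52.8 CPM in aged sham 1 to 4 and at 11.1, 15.1, 24.2, 64.5, and 13.6 CPM in aged bleo 1 to 5. Its highest libraries were aged sham 4 and aged bleo 4, which also had the highest summed CPM of 7 neutrophil markers (936 and 841 CPM, against 83.2 to 420.3 CPM in the other libraries). Ncf4 and Rac2 were likewise highest in these libraries, and the log2 fold changes of Ncf1, Ncf4, and Rac2 were 0.03, -0.23, and -0.07 (FDR in edgeR's quasi-likelihood test 0.807 or more). These genes, and Tek, Pecam1, Cthrc1, Tnc, Acta2, and Postn, were named after their values were seen. The same holds for Pdgfra, Tcf21, and the other single marker genes given with their own values. The summed endothelial, epithelial, erythroid, and mesothelial markers were at most 199.5, 81.2, 16.4, and 106 CPM in any library. Of the endothelial list, Tek made up most of the level in aged sham and fell (156, 149, 160.0, and 179 CPM in aged sham 1 to 4 against 32.9, 55.7, 33.7, 9.50, and 12.4 CPM in aged bleo 1 to 5), while Pecam1, which encodes CD31, was at 2.43 to 6.69 CPM in all libraries.

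Of 4 activated fibroblast genes, 3 were called higher. Within aged bleo, Cthrc1 and Tnc were highest in aged bleo 4 and 5 (323 and 334 CPM, and 2767 and 2692 CPM), the libraries lowest in Sod3, Cat, Nox4, Duox1, and Gstm1. Acta2 differed between these libraries, as it was lowest of aged bleo in aged bleo 4 (1043 CPM) and highest in aged bleo 5 (1322 CPM), with 1187 to 1263 CPM in aged bleo 1 to 3. Postn did likewise, at 949 CPM in aged bleo 4, 1583 CPM in aged bleo 5, and 1053 to 1163 CPM in aged bleo 1 to 3.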
